A study of Homo sapiens with 6 samples.

Results

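GADD45A, AEN, SESN2, BAX, TIGAR and PLK2 are target genes of p53, the tumour suppressor transcription factor, here measured in cells without p53. They were taken as the transcription start sites (TSSs) that carry these gene names in the deposited density tables, which gave 6 of 3000 TSSs, 1 for each gene. ChIP-seq, which sequences the DNA that comes down with a protein, used an anti-TY antibody on untreated RPE1 cells (immortalised epithelium of the human retina) in 2 groups of 3 libraries. All cells carried an inducible Cas9 and disruptions of p53 and of the puromycin resistance gene. The first group is WT for CFAP20 and has no TY tag, so its signal is antibody background. The second is a CFAP20 knockout that expresses TY-tagged CFAP20 (TY-CFAP20), a protein of cilia that the study also places in the nucleus. The sources used here do not say whether each line is 1 clone or what drives the tagged protein.

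When DNA is damaged, p53 accumulates and binds DNA at pairs of short sequences, called half-sites, near its targets, and the products of these targets halt the cell cycle, repair DNA, change metabolism or start apoptosis. Without p53 that induction is lost, but many of these genes keep a basal level of transcription through other factors that respond to growth signals, stress or amino acid supply. GADD45A and PLK2 belong to the arm of growth arrest and cell cycle control, SESN2 and TIGAR to that of metabolism, BAX and AEN to that of cell death.

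Every value below is the authors' average over the 3 libraries of a group. Replicate errors, n and p-values therefore cannot be given, and a comparison is that of 2 averages. The unit is read density normalised to Drosophila spike-in chromatin, given every 10 bp over the 5 kb on each side of a TSS. Reads per library are unknown. Single fragments raise the average by fixed steps, and from the largest and smallest step the density of the 6 genes near the TSS stood for 5.26 to 41.4 overlapping fragments per position in WT and 7.597 to 40.4 in TY-CFAP20. Of 11 pigment epithelium markers 5 were listed. OTX2 and MITF had nascent transcription levels of 10.0 and 1.40 (BrU-seq, below) and RLBP1 0.235. RPE65 and TTR were listed without a value. Of 11 markers of other lineages 5 were listed too. SFTPB had 0.852, CDH5 0.250 and ALB 0.0192, and CD3E and NEUROD1 had no value. The gene for p53 is not analysed here, so its loss rests on the labels.

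The DNA around the genes was searched for the sequence p53 binds. A search for 2 adjoining p53 half-sites with no spacer and at most 1 mismatch, or for 2 exact half-sites with a spacer of 0 to 13 bases, over the 10 kb around each TSS found 1 match at 3 of the 6 genes. The first form was present in 2.20% and the second in 1.30% of the 3000 windows. The matches are shown because they allow the tagged protein to be read at the sequence itself. Capitals mark half-site letters that match, and small letters a mismatch or the spacer.

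GADD45A (hg38 chr1:67686775-67686794, plus strand, intron 3): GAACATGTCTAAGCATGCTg
PLK2 (hg38 chr5:58462274-58462293, minus strand, upstream of the gene): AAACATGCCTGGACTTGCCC
TIGAR (hg38 chr12:4321615-4321636, plus strand, intron 1): AGACATGTCCacAGACTTGTCT

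Of the 3, the match of PLK2 lay 2032 bp before the TSS, that of TIGAR began 410 bp and that of GADD45A 1714 bp after it. None was found in the windows of AEN, BAX and SESN2, which says only that these letters are not there. CFAP20 signal was not concentrated on the PLK2 match: within 250 bp of it TY-CFAP20 had a density of 0.917, against 0.899 for WT. At the TIGAR match the same values were 1.08 and 0.7997, and at the GADD45A match 1.95 and 1.47. For GADD45A and TIGAR these differences, 0.476 and 0.283, were below those at their own TSSs given next. The windows at the TSSs are wider, and at TIGAR the window of the match overlaps that of the TSS.

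For the promoters, RefSeq (GRCh38.p14) gave the 250 bases before the annotated start of 5 of the 6 genes, and none is printed for GADD45A. The 3 shown are those of the gene with the highest ratio of TY-CFAP20 to WT (TIGAR), the lowest (AEN) and the most transcribed (PLK2). Capitals mark, on both strands, TATATAA and TATAAA (forms of the TATA element), the CCAAT box, the GC box GGGCGG, the cyclic AMP response element TGACGTCA, the E-box CACGTG and the p53 half-site, and in these promoters no 2 matches overlapped.

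TIGAR (chr12:4320963-4321212, plus strand): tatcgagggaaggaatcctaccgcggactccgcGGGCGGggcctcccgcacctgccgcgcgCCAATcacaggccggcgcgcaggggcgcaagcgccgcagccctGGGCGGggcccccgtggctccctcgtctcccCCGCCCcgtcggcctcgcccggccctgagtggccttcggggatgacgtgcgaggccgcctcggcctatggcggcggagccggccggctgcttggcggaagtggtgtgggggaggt
AEN (chr15:88621090-88621339, plus strand): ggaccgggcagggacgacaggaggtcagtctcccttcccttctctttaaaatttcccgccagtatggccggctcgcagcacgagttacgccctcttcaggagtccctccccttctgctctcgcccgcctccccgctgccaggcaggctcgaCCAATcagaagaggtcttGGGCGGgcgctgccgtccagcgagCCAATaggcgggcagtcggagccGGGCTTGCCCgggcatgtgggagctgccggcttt
PLK2 (chr5:58460087-58460336, minus strand): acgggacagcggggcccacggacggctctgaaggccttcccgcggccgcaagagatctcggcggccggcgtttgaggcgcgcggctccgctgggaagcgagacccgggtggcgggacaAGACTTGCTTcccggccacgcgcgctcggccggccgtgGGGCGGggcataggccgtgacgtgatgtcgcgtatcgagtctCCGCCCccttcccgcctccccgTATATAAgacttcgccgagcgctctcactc

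All 5 promoters held GGGCGG, as did 65.8% of the 2017 promoters in the density tables that matched RefSeq, and 4 held CCAAT (36.3%). PLK2 had neither CCAAT nor TATAAA but TATATAA from -30 to -24 bp, a position typical of a TATA element. At any position, TATATAA was found in 1.39% of promoters. BAX alone had CACGTG (8.97%), in 4 copies. TATATAA and CACGTG were added after sequences were seen, so their shares are no result of a planned search. A p53 half-site stood in PLK2 and AEN (4.31%). No member held TATAAA (5.50%) or TGACGTCA (3.37%). GC content ran from 62.8% in BAX to 76.8% in TIGAR, against a median of 64.0% with 25th and 75th percentiles of 56.4% and 71.2%. SESN2 (65.6%), AEN (66.0%) and PLK2 (71.2%) lay between. Whether base composition goes with CFAP20 signal was not tested.

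Nascent transcription set the 6 genes far apart although p53 was absent from all cells. BrU-seq labels newly made RNA, and the authors give its level in WT gene bodies without saying whether it is divided by gene length. PLK2, a polo-like kinase also induced by serum, stood at 411.2, rank 4 of 3000. GADD45A, a stress-induced regulator of growth arrest, followed at 170.7 (rank 15). AEN, an exonuclease of apoptosis, had 30.4 and BAX, which permeabilises the outer mitochondrial membrane, 16.3. SESN2, a leucine sensor that restrains mTORC1, had 5.42, and TIGAR, a fructose bisphosphatase that slows glycolysis, 0.963 (rank 2602). The highest level was 426.9 times the lowest. The tables hold only the 3000 highest levels, with a median of 2.55, of 6325 TSSs listed with a level, so TIGAR was low among these 3000 and not among all with a level. R-loops, which are RNA-DNA hybrids measured by DRIP at the TSS, were also highest at PLK2 (4942, rank 39) and GADD45A (3355, rank 89), then BAX (1104), AEN (692.3), TIGAR (448.2) and SESN2 (321.8), with a median of 528.1 over all TSSs.

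**Figure D1:**
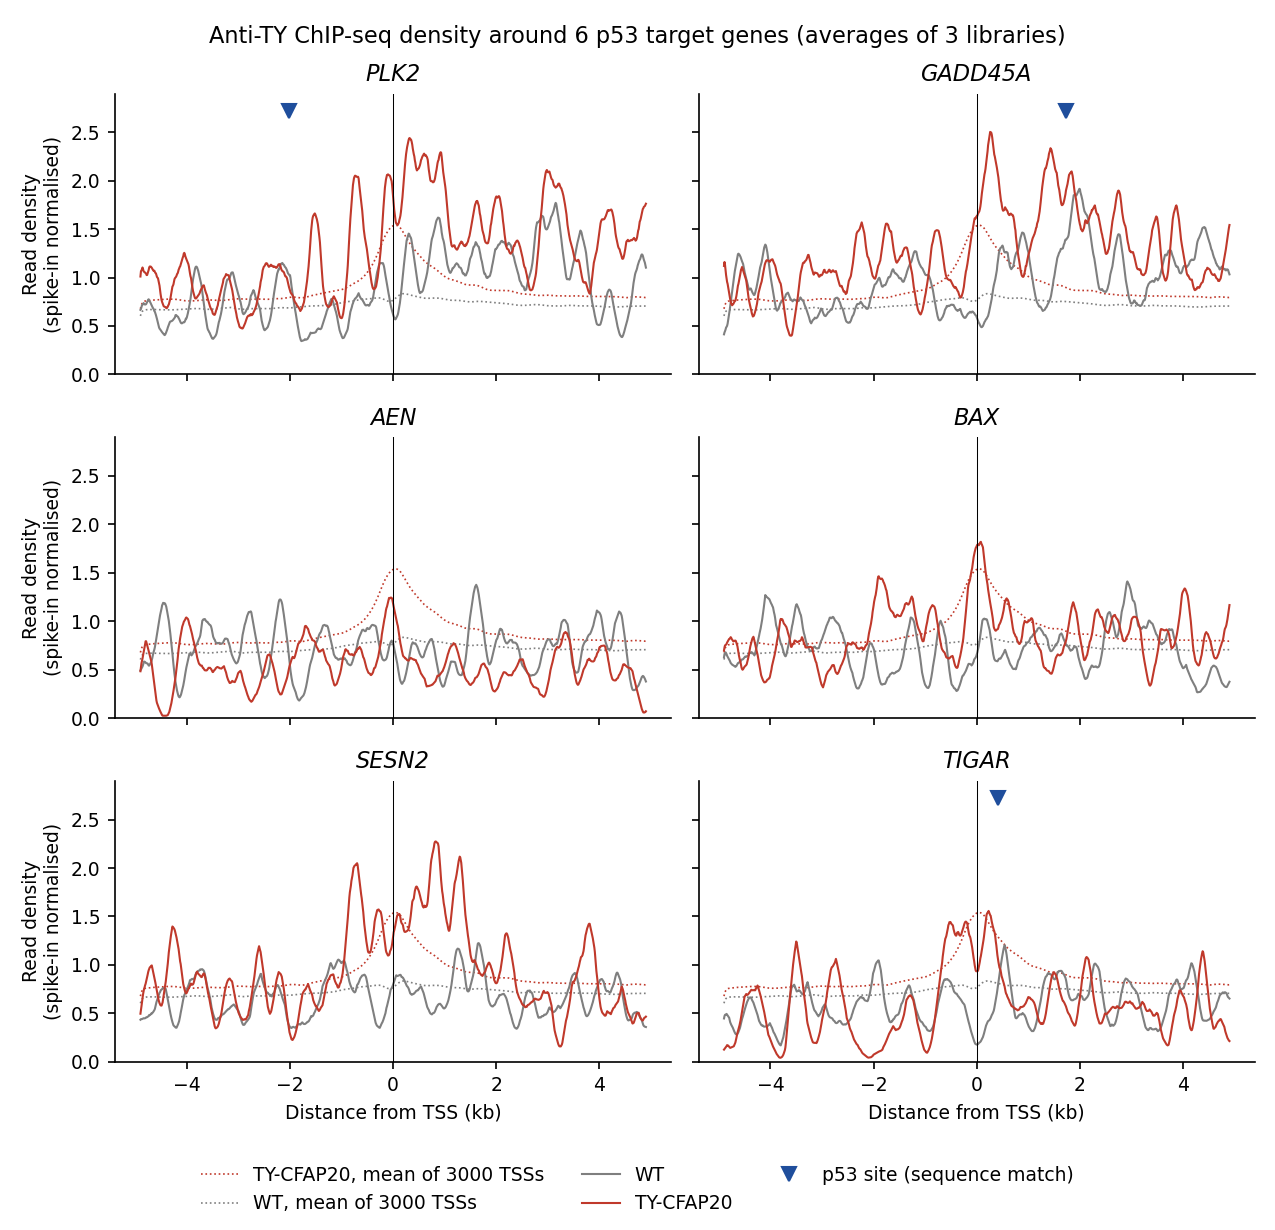
Spike-in normalised read density (y axis, running mean over 21 positions) against distance from the TSS in kb (x axis) for each of the 6 genes, as group averages of 3 libraries for WT (grey) and TY-CFAP20 (red). Dotted lines are means over 3000 TSSs and triangles mark the p53 sequence matches. Density of TY-CFAP20 is raised over much of PLK2 and GADD45A, on both sides of the TSS at SESN2, TIGAR and BAX, and least at AEN.

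CFAP20 signal did not follow that order. Mean density within 500 bp of the TSS was higher in TY-CFAP20 than in WT at all 6 genes, as at 91.2% of all TSSs. With 0.668 added to both values (the median WT density of the flanks, the outermost 1 kb at either end), 3 of the 6 were at least 1.5-fold higher, against 34.9% of all TSSs, and 0 were 2-fold higher, against 1.77%. The folds were 1.64 at TIGAR, 1.63 at GADD45A and 1.55 at SESN2 on one side of that threshold and 1.46 at PLK2, 1.43 at BAX and 1.05 at AEN on the other. The count of 3 was 1 (TIGAR) after local scaling, which divides by the TY-CFAP20 to WT ratio of flanks summed over 11 neighbouring TSSs, against 17.5% of all TSSs. Over a window from -1000 to 1000 bp it was 1 (SESN2), against 14.2%. With no addition 5 genes passed 1.5-fold (66% of all TSSs) and 3 passed 2-fold (30.9%). All 6 were also above WT after local scaling (87.6% of all TSSs) and after subtraction of each group's own flank (87%). Far from the TSS, 66.3% of 6000 flank windows were higher in TY-CFAP20 and 2.1% at least 1.5-fold higher. The median difference of the 6 was 0.742 and that of all TSSs 0.571, with 25th and 75th percentiles of 0.267 and 0.846. So 5 of the genes lay within or just above the middle range of all TSSs and AEN lay below it. With own flanks subtracted AEN had 0.279, above PLK2 (0.184) and inside the middle range of all TSSs on that scale, 0.179 to 0.745.

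The genes of growth arrest, GADD45A and PLK2, had the highest densities in TY-CFAP20, though PLK2 was also highest in WT (0.967). By the difference GADD45A (0.877) was highest, but TIGAR (0.751) was above PLK2 (0.749). With own flanks subtracted GADD45A was again highest (0.924) and PLK2 was lowest (0.184). At GADD45A (TSS at chr1:67685061, plus strand) WT had a density of 0.717 and TY-CFAP20 one of 1.59, which is 0.877 more and 2.22 times as much. A difference of at least that size was found in 35 of 6000 flank windows (0.583%) and a larger one at 671 TSSs. Its outermost flanks were alike, at 1.02 in TY-CFAP20 and 1.07 in WT. Over wider stretches the mean difference was 0.220 from -4500 to -500 bp and 0.318 from 500 to 4500 bp. The same means over all TSSs were 0.111 and 0.151. The signal lay downstream: it was 1.32 from 0 to 500 bp and 0.445 over the 500 bp upstream. The largest difference in a running mean, 1.80 at 260 bp, fell in the 5′ UTR of exon 1, as GENCODE starts the gene 140 bp after the authors' TSS. TY-CFAP20 also exceeded WT by 1.03 from 1000 to 1500 bp. GADD45A is 3278 bp long, so the window spans the whole gene.

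PLK2 (chr5:58460261, minus strand) had the highest density of the 6 in both groups, 1.72 in TY-CFAP20 and 0.967 in WT. Its difference of 0.749 was almost that of TIGAR, but its surroundings differed. Its flanks had 1.25 in TY-CFAP20 against 0.689 in WT, and this ratio of 1.82 was above the 1.78 at the TSS. With each group's own flank subtracted the difference was 0.184, which 74.3% of TSSs exceed. PLK2 is 6279 bp long, so its downstream flank lies inside the gene. The upstream flank alone had a ratio of 1.69. The flank ratio summed over 11 neighbouring TSSs was 1.17 at PLK2, as was the median of all. The difference was 0.852 from -1000 to -500 bp, 0.519 from -500 to 0 bp, 0.969 from 0 to 500 bp and 0.911 from 500 to 1000 bp. The largest difference in a running mean (1.39) lay at 570 bp, in the coding part of exon 1.

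In the metabolic arm, SESN2 (chr1:28259527, plus strand) had 0.667 in WT against 1.40 in TY-CFAP20, a difference of 0.735. Both sides of the window were alike, at 0.732 upstream and 0.735 downstream, but the largest difference lay outside it. From 500 to 1000 bp TY-CFAP20 exceeded WT by 1.298, a difference reached in 27 of 12000 flank windows of 500 bp (0.225%). This window was picked as the largest of the gene, so the share does not say how rare such a maximum is. The largest difference in a running mean was 1.75 at 810 bp, in intron 1. An origin centre mapped by OK-seq lies 5.53 kb upstream of SESN2, just beyond the density table. Of all TSSs 6.57% have one within 10 kb, and the other 5 genes had none within 50 kb, where 19.4% of all TSSs have one.

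TIGAR (chr12:4321205, plus strand), the least transcribed of the 6, had the highest ratio. WT density was 0.508 and that of TY-CFAP20 1.26, and the ratio of 2.48 was exceeded at 300 TSSs. WT density ranked 2822 of 3000, while the difference of 0.751 ranked 993. TY-CFAP20 at the TSS was 2.66 times its own flank, the largest such contrast of the 6, against a median of 1.81 over all TSSs. The signal was symmetric, at 0.772 upstream and 0.754 downstream, and ended sharply, at -0.101 from 500 to 1000 bp.

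**Figure D2:**
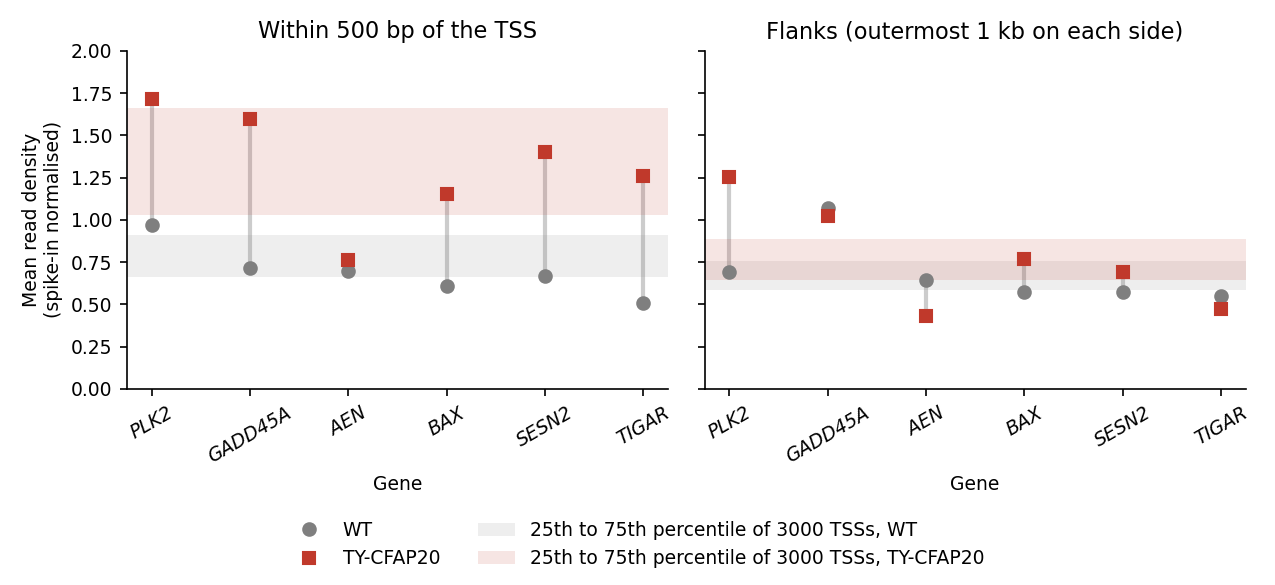
Mean spike-in normalised density (y axis) of each gene (x axis) within 500 bp of the TSS (left) and in the flanks (right) for WT (circles) and TY-CFAP20 (squares), as group averages without error bars. Shaded bands are the 25th to 75th percentiles of 3000 TSSs. At the TSS the groups are apart at all genes but AEN, and PLK2 is the gene whose flanks are apart most.

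The genes of cell death, BAX and AEN, were lowest in TY-CFAP20 density and in the difference within 500 bp of the TSS. With own flanks subtracted both (0.352 and 0.279) were above PLK2 (0.184). BAX (chr19:48954877, plus strand) had 1.15 in TY-CFAP20 and 0.608 in WT, a difference of 0.545 close to the median of all TSSs. Its signal was centred, with the largest difference in a running mean, 1.13, at -20 bp. The difference was 0.250 from -1000 to -500 bp and 0.364 from 500 to 1000 bp. Means over all TSSs were 0.182 and 0.329. Of the 20 windows of 500 bp around BAX, the largest difference lay from -2000 to -1500 bp, where GENCODE 44 starts no gene. It was 0.821 (1.26 in TY-CFAP20, 0.440 in WT), more than at its TSS. A difference of at least that size was found in 215 of 12000 flank windows of 500 bp (1.79%). The BAX window was picked as the largest of 20, so this share does not say how rare such a maximum is.

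AEN (chr15:88621296, plus strand) had 0.760 in TY-CFAP20 and 0.696 in WT, a difference of 0.0637 that 12.3% of TSSs fell below. This was the gene where both averages nearly met. The difference was exceeded in 54.75% of flank windows, and TY-CFAP20 was above WT at 54 of 101 positions near the TSS, against 88 to 100 positions at the other 5 genes. Within 250 bp it was 0.416, and the running mean of TY-CFAP20 itself was highest at -40 bp (a density of 1.24). From -1000 to 1000 bp it was -0.0243. The flanks of AEN were low in TY-CFAP20 as well, 0.431 against 0.647 in WT, and TY-CFAP20 at the TSS was 1.76 times its own flank. DET1, the next measured TSS on one side, had a flank ratio of 0.726 and still a difference of 0.749, and ISG20 on the other side had 1.13 and 0.139. Whether the low flank has a part in the low value at AEN was not tested.

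**Figure D3:**
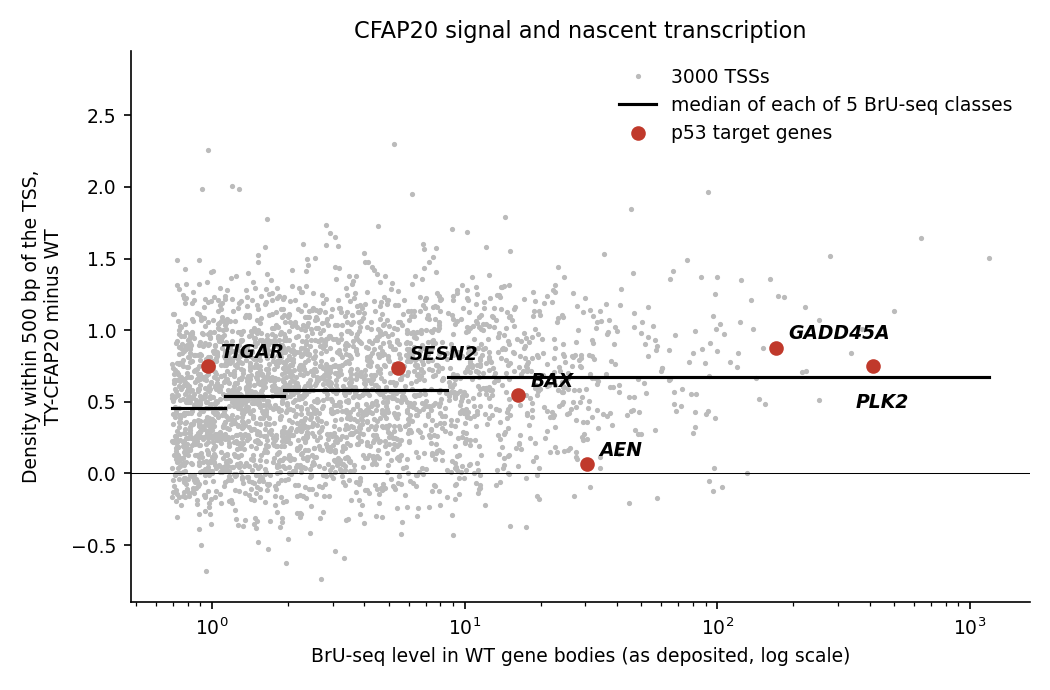
Difference in density within 500 bp of the TSS, TY-CFAP20 minus WT (y axis), against the deposited BrU-seq level (x axis, log scale) for 3000 TSSs (grey) and the 6 genes (red). Black lines are medians of 5 BrU-seq classes of 600 TSSs. TIGAR and PLK2 sit at opposite ends of the x axis at nearly the same height in this window, and AEN lies near 0.

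Set beside transcription, the difference at TIGAR (0.751) was close to that at PLK2 (0.749), although their BrU-seq levels were the lowest and highest of the 6. This closeness depended on window, centring and scaling. Within 250 bp the differences were also close, 0.924 at TIGAR and 0.943 at PLK2. From -1000 to 1000 bp they were 0.388 at TIGAR and 0.813 at PLK2, and with own flanks subtracted 0.828 and 0.184. After local scaling they were 0.649 and 0.498. Centred on the nearest GENCODE start, which at PLK2 lies 122 bp after the authors' TSS, they were 0.753 and 0.894. In the window of 500 bp both were above the median of their own BrU-seq class of 600 TSSs, which was 0.457 for TIGAR's, the lowest, and 0.672 for PLK2's, the highest. SESN2 (class median 0.583) and GADD45A were above theirs too. AEN and BAX, in the highest class with GADD45A and PLK2, were below. The middle range of that class, 25th to 75th percentile, ran from 0.414 to 0.945, and of the 4 genes AEN alone was outside it. By R-loop level these 4 genes ranked PLK2, GADD45A, BAX and AEN, which was also the order of their TY-CFAP20 density. By BrU-seq BAX and AEN changed places, and by the difference PLK2 and GADD45A did. The match with R-loop level did not extend to all 6 genes. SESN2 and TIGAR had the lowest R-loop levels but TY-CFAP20 densities of 1.40 and 1.26, above BAX (1.15) and AEN (0.760). With 6 genes no relation between these measures was tested.

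Along the 10 kb the genes had little shape in common. Over 50 bins of 200 bp, the correlation of TY-CFAP20 minus WT between 2 of the genes ranged from -0.0941 (BAX and TIGAR) to 0.350 (BAX and PLK2), with a median of 0.180 over 15 pairs. Bins of a gene share libraries and neighbouring fragments. Among all other TSSs the profile most like that of GADD45A was CCDC134 (r = 0.680), and for SESN2 it was CALM2, a calmodulin gene (0.657). PRR14 was closest to TIGAR (0.649), C1GALT1 to BAX (0.634), DYNC1I2 to PLK2 (0.625) and ZNF572 to AEN (0.534). Each is the highest of 2999 values and describes 2 averages.

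The nearest start sites among the 3000 measured were not alike either. SESN2 lies between DNAJC8 (26.5 kb away, difference 1.03) and MED18 (69.5 kb, 0.955), both higher than SESN2. BAX lies between PPP1R15A (82.5 kb away, 1.13) and SNRNP70 (130.5 kb, 1.37), which were higher than BAX. GADD45A lies between MIER1 (0.949) and USP33 (0.334), PLK2 between GPBP1 (1.01) and CTD-2016O11.1 (0.0797), and TIGAR between RP5-1063M23.2 (-0.194) and SCNN1A (0.199). At TIGAR, PLK2 and GADD45A the neighbours are 754.8 kb to 10075 kb away.

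Other genes of the p53 pathway were taken from a list of 66 further targets, of which 10 were in the density tables. All 10 were higher in TY-CFAP20 and 4 were at least 1.5-fold higher, with a median difference of 0.608. E2F7, a repressor of cell cycle genes, had 2.40 (WT 0.830) and was the single one past 2-fold. SOD2, the mitochondrial superoxide dismutase, had 2.18 and 0.770, and CCNG2, an atypical cyclin, had 1.75 and 0.711. At the low end were RPS27L (1.28 and 0.811), IGFBP3, which binds insulin-like growth factors (1.15 and 0.718), and CASP1, an inflammatory caspase (1.25 and 1.01). In this difference AEN was below all 10, but after local scaling it was above CASP1 (0.124 against 0.0674).

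Of 25 regulators of p53, 3 were measured, and all were higher in TY-CFAP20. TP53BP2, which directs p53 to death genes, had 2.23 in TY-CFAP20 and 0.757 in WT. CREBBP, an acetyltransferase, had 1.43 and 0.636, and MDM4, an inhibitor of p53, 1.72 and 1.10. TP53BP2 and CREBBP were past 1.5-fold and MDM4 was not. These shares, like those of the 6 genes, stand beside 91.2% of all TSSs above WT and 34.9% past 1.5-fold.

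**Figure D4:**
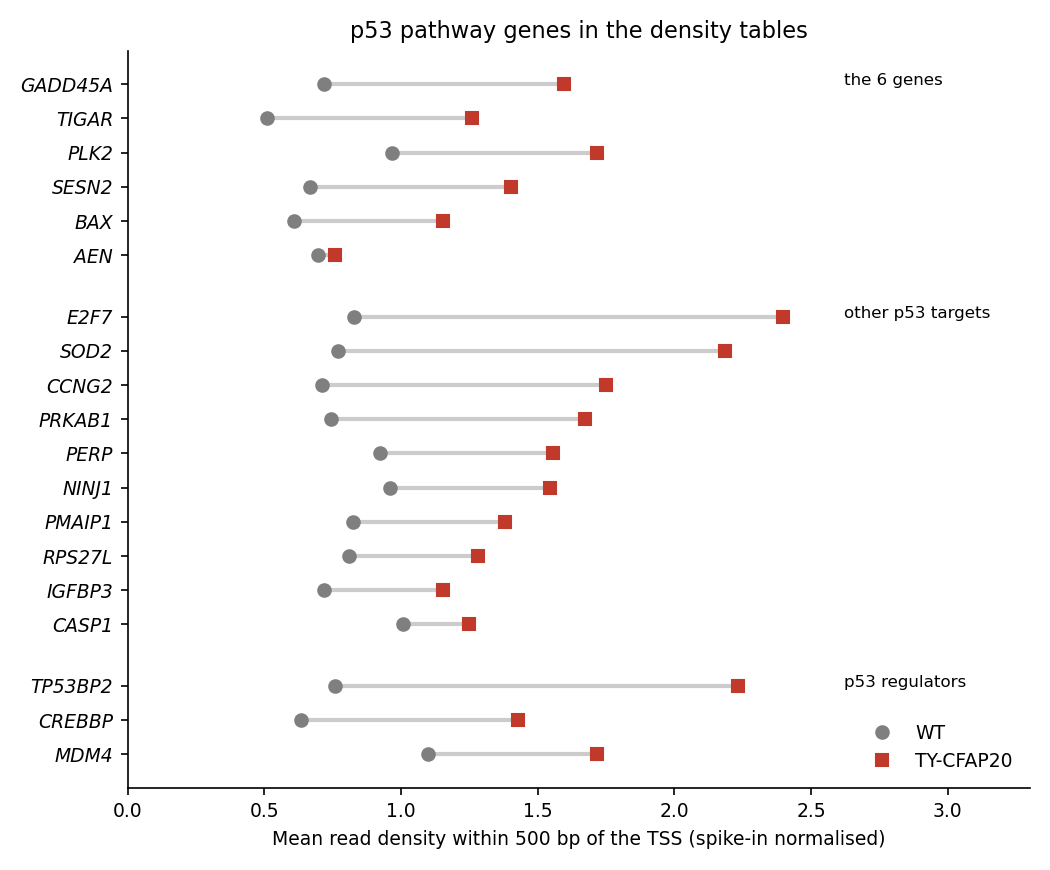
Mean spike-in normalised density within 500 bp of the TSS (x axis) for WT (circles) and TY-CFAP20 (squares), as group averages without error bars, at the 6 genes, 10 other p53 targets and 3 p53 regulators (y axis). All genes shown are higher in TY-CFAP20, by the most at E2F7 and the least at AEN.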

How the data were processed

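The 6 anti-TY ChIP-seq samples are 3 of WT and 3 of TY-CFAP20. Per the labels' protocols, each WT reaction held 84 µg of chromatin with 74 ng of Drosophila spike-in chromatin, and each TY-CFAP20 reaction 60 µg with 53 ng. The authors deposited read density as a spike-in normalised signal, 1 average per group, with the BrU-seq and DRIP levels, and a ratio (headed CFAP20 over WT, assay not named) that is used in the closing section alone. The submitters' processing notes name HOMER 4.8.2, R 4.0.5, STAR 2.7.7a, BWA 0.7.17, Trim Galore 0.6.5 and SAMtools 1.11, and the builds BDGP6 and hg38. The sources used here do not give how the spike-in factor was made. Columns with neither sample nor group numbered 0.

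For each TSS, density was averaged over -500 to 500 bp, and the flank is the 1 kb at either end of the table. Folds used a pseudocount of 0.668, which understates the change of low TSSs. No test could be run on group averages. A call means past the stated fold. For local scaling, flank densities were summed over 11 adjacent TSSs and TY-CFAP20 was divided by WT. Summits are maxima of a running mean over 21 positions within 1 kb.

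Coordinates are hg38 and 1-based. Sequences came from the hg38 FASTA and RefSeq, and the RefSeq promoters of the 5 matched genes were the same as hg38. Gene models came from GENCODE 44. TATATAA and CACGTG were added after sequences were seen. The 6 members and the lists were chosen with earlier results of these data known. The rule for named genes took the 6 members, for each the TSS with the most similar profile and the nearest measured TSS on each side, and the 3 highest and 3 lowest differences in each list. One further target was taken off the list and is not reported here. Calculations were tested on simulated data. Alternatives were other windows, scalings, pseudocounts, folds and flanks. Python 3.11.15, numpy 2.4.6, pandas 2.3.3, pysam 0.24.0 and matplotlib 3.10.9 were used.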

Additional observations from a re-analysis of the deposited data

Results flagged for a closer look

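GADD45A stood out in a measure outside the comparisons above. Its CFAP20-over-WT ratio in the authors' deposited table, of an unnamed assay, was 3.04, rank 23 of 2999 TSSs with a value, above the 95th percentile of 2.15. In the authors' deposited table the other members had 1.84 at AEN, 1.33 at SESN2 and at BAX, 1.25 at TIGAR and 0.847 at PLK2, with a median of 1.14 over all TSSs. AEN, the lowest of the 6 genes in CFAP20 density, was the second of them by this ratio, and PLK2, the most transcribed, the last. With its assay unnamed, the ratio cannot be read as a measure of CFAP20 density.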

How the results depend on the processing

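No paired analysis was possible because only averages over each group were at hand. No single library was left out for that reason, and with depth unknown no difference has a counting error. Centring on the nearest GENCODE start was chosen after seeing the data. A change of over 1.5 times counts as moved.

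The 6 genes were above WT with windows of 250 bp on each side, local scaling (by the running flank ratio), own flank subtraction and GENCODE centring. AEN was not above WT in 4 other settings: -0.0243 from -1000 to 1000 bp, -0.0320 from 0 to 1000 bp, -0.0310 with equal mean flanks and -0.0642 as a median over positions. It was 0.416 within 250 bp. TIGAR (0.751) was 0.388 from -1000 to 1000 bp and 0.326 from 0 to 1000 bp, and GADD45A (0.877) was 0.565 from -1000 to 1000 bp. With own flanks subtracted AEN was 0.279, BAX 0.352 and PLK2 0.184, and with local scaling AEN was 0.124 and PLK2 0.498. The count of 3 genes at 1.5-fold, with the share of all TSSs in brackets, was 1 from -1000 to 1000 bp (14.2%), 1 with equal mean flanks (18.3%), 1 with local scaling (17.5%), 5 with 0.25 times the pseudocount (57.7%), 5 without one (66%) and 0 with 4 times it (0.2%). With the threshold itself changed it was 0 at 2-fold and 6 for any excess over WT. The median difference of 0.742 was 0.484 after subtraction of own flanks and 0.735 to 0.749 when any 1 gene was left out. The BAX summit moved from -20 to 30 bp with a running mean over 11 positions and to -60 bp over 41, and that of AEN from -130 to -10 bp over 41. The cause was not tested.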

Other observations

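Single positions within the 10 kb windows varied widely in both groups. Windows of 500 bp in the flanks of all TSSs differed by -0.485 to 0.747 (the central 95% of 12000 windows). Of the 20 such windows of each gene, PLK2 had 4 above that range, including 1 from 4000 to 4500 bp (0.877), while GADD45A, SESN2 and TIGAR had 2 each and BAX 1. AEN had 0 above and 2 below it, from -3000 to -2500 bp (-0.531) and from 1500 to 2000 bp (-0.533). Such counts were not made for the other TSSs. The mean difference over all TSSs was itself 0.530 from -500 to 0 bp and 0.602 from 0 to 500 bp. Windows near the TSS are thus set against a range from flanks, and the counts are not shown to be particular to these genes.

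As a difference in a running mean, the mean profile of all TSSs peaks at 0.768. The median summit of single TSSs was 1.30 over 3000 TSSs, and the median maximum of 2 kb stretches far from the TSS was 0.712. AEN's summit of 0.520 was exceeded in 75.75% of those stretches, that of TIGAR (1.13) in 11.7% and that of GADD45A (1.80) in 1.18%.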
